A study of Mus musculus with 12 samples.

Results

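Difluoromethylornithine (DFMO) was given to non-pathogenic Th17 cells (Th17n) and to induced regulatory T cells (iTreg), and its effect on open chromatin was taken as the average over both lineages. All 12 libraries of the series entered this comparison: 6 DFMO libraries against 6 vehicle libraries, with lineage as a term in the model. The libraries came from 3 wild-type C57BL/6 mice, each of which gave 1 library in each of 4 groups. Sorted naive splenic CD4+ T cells (CD44-, CD25-) were activated on plates coated with antibodies to CD3 and CD28 (1 µg/ml each) and were harvested at 68 hours. TGF-beta1 was added to every culture at 2 ng/ml, and the Th17n cultures also had IL-6, at 25 ng/ml. The DFMO groups had 100 µM DFMO, and the other groups are labelled vehicle, with no name for the solvent. Cells were sorted as live, frozen and thawed before tagmentation, so that each library is a bulk population made in vitro. In such a population, a change in the share of cells of a kind and a change within each cell cannot be told apart. The labels give no age.

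DFMO is a suicide inhibitor of ornithine decarboxylase, the enzyme that makes putrescine from ornithine and so opens the pathway to the polyamines spermidine and spermine. Polyamines are small polycations that bind RNA and DNA, and spermidine is also the donor of hypusine, a modified residue of the translation factor eIF5A. Activated T cells raise polyamine synthesis as they grow and divide. ATAC-seq reads where the transposase Tn5 can enter chromatin, and a peak is a region where such insertions pile up. The 2 lineages share TGF-beta1 and differ in IL-6, which drives Th17 differentiation through STAT3. The averaged effect gives both lineages equal weight, and it can pass through a change in one of them.

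The table held counts at 48443 peaks, of which 43726 had enough reads to be tested. Total counts per library ran from 1020937 to 6496550, with a median of 2209388 in the DFMO libraries and 4028860 in the vehicle libraries, so depth moved with treatment. Single libraries went against this order: the smallest total was that of Th17n vehicle replicate 1. Counts after thinning every library to the smallest total are given for the main results. Markers of T cells were open in all libraries: the summed accessibility of Cd3e, Cd3d, Cd4, Cd2 and Lck was 611 to 631 counts per 1000000 scaled counts (CPM) in Th17n vehicle and 695 to 702 in iTreg vehicle. It was lower with DFMO in both lineages, at 513 to 562 CPM in Th17n and 629 to 652 in iTreg, and most of this difference was at Cd2 (17 of the 32 peaks). Cd2 had a mean of 382 CPM with vehicle and 296 with DFMO in Th17n, and 443 and 363 in iTreg. The means of Cd3e were not lower with DFMO, at 62.5 and 77.8 CPM in Th17n and 66.7 and 68.8 in iTreg. No peak was assigned to Cd8a, Nkg7, Cd79a or Ms4a1, and the single peaks of Csf1r and Lyz2 stayed at or below 2.59 CPM in every library. Other markers of B, myeloid and cytotoxic cells were open. Over the libraries, the peaks of Pax5 summed to 18.4 to 51.7 CPM, Spi1 to 19.2 to 38.5, Itgam to 14.5 to 47.4 and Cd8b1 to 15.5 to 45.2. The single Foxp3 peak was low in both lineages, between 2.07 and 20.8 CPM, and did not mark the iTreg libraries.

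Averaged over lineages, 7086 of the 43726 tested peaks (16.2%) differed between DFMO and vehicle in edgeR's quasi-likelihood test at an adjusted p under 0.05. Of these, 3509 (8.02%) were more accessible and 3577 (8.18%) less accessible with DFMO, while the median change over all tested peaks was -0.00086 on the log2 scale. The median was 0.73 log2 units among gains and -0.84 among losses, and 1128 gains and 1261 losses were at least 2-fold. Unadjusted p-values under 0.05 were found at 12869 peaks. In the comparison of libraries from the same animal and lineage, 2080 gains (59.3%) and 2093 losses (58.5%) moved 1 way in all 6 pairs. Of all tested peaks, 7.21% rose and 7.10% fell in all 6. The treatments did not overlap within either lineage at 1309 gains and 1237 losses, against 3.45% and 3.24% of all tested peaks. These counts use the same values as the calls, so they describe the calls and are no separate support. With every library thinned to the smallest total, 1615 gains and 1715 losses passed, of which 1494 and 1582 were the same calls. Leaving out iTreg DFMO replicate 3 or Th17n DFMO replicate 1 lowered the count of gains to 2209 or 2257, and leaving out iTreg vehicle replicate 3 lowered the count of losses to 2373.

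**Figure D1:**
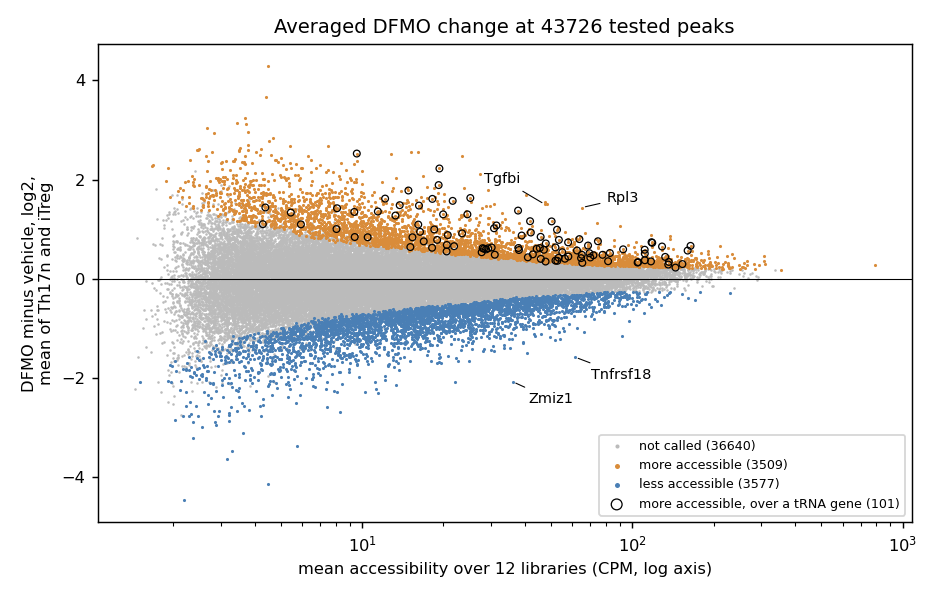
Averaged DFMO change (log2, vertical axis) against the mean accessibility over 12 libraries (CPM, log axis) at 43726 tested peaks. Orange points are the 3509 peaks more accessible and blue points the 3577 less accessible with DFMO; black circles mark the 101 gains that lie over a tRNA gene, which all sit above 0.

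The loss with the smallest adjusted p lay 1761 bp outside Tnfrsf18, the gene of the co-stimulatory receptor GITR (mm10, chromosome 4, 156030655 to 156031480). Peaks are named by the nearest gene model within 100 kb, and this naming carries no evidence of regulation. In Th17n cells it stood at 94.4, 87.6 and 81.3 CPM with vehicle and at 26.7, 17.9 and 24.0 CPM with DFMO (animals 1, 2 and 3). In iTreg cells it stood at 77.7, 99.5 and 106 CPM with vehicle and at 26.5, 49.9 and 43.4 CPM with DFMO. All 6 DFMO libraries were below all 6 vehicle libraries, and the averaged change was -1.58 ± 0.13 (SE; adjusted p = 2.9e-12). The next peak along the chromosome was assigned to Ttll10, a tubulin glycylase gene, and lies beside the first (156031544 to 156032357). It fell by 1.49 ± 0.14 (adjusted p = 2e-10).

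Zmiz1 encodes a coregulator that works with Notch1 and other factors in T cells. A peak inside the gene (chromosome 14, 25561693 to 25562744) had 52.8, 83.8 and 76.7 CPM in Th17n vehicle and 9.76, 19.6 and 12.3 CPM in Th17n with DFMO. Its iTreg values were 33.7, 43.5 and 58.0 CPM with vehicle and 14.5, 16.8 and 11.1 CPM with DFMO. No DFMO library reached a vehicle library of either lineage, and the averaged change was -2.07 ± 0.17 (adjusted p = 4e-12).

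Other losses among the 12 with the smallest adjusted p were at Ralgds, which encodes an exchange factor for Ral GTPases (-1.23), Tent5c, a poly(A) polymerase gene (-1.39), and Ggta1, a galactosyltransferase gene (-2.04). They were followed by Dnase1l3, the gene of a secreted DNase (-1.66), Evl, an actin regulator gene (-1.06), the predicted gene Gm46963 (-1.18), Rassf7 (-1.14) and Fgfbp1 (-0.85, with the peak 29579 bp from the gene). Among peaks with a mean of at least 20 CPM in one treatment that fell in all 6 pairs, the largest losses were at Cd47, whose product restrains phagocytosis (-2.14), the lipid transporter gene Mfsd2a (-2.08), Zmiz1, the lymph node homing receptor gene Ccr7 (-1.70) and the kinase gene Mast4 (-1.70). The Rassf7 peak (chromosome 7, 141221547 to 141222431) lies 53 bp from the gene of miR-210 (141221384 to 141221493), a microRNA known to be induced in hypoxia. The mature sequence is shown because this region was among the strongest losses; capitals mark the seed, bases 2 to 8 (RefSeq, GRCm38.p6).
mmu-miR-210-3p: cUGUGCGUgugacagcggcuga

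The Rassf7 peak stood at 124, 113 and 98.7 CPM in Th17n vehicle and 86.9, 70.3 and 52.5 CPM in Th17n with DFMO. In iTreg it stood at 133, 143 and 144 CPM with vehicle and 41.6, 67.2 and 28.6 CPM with DFMO. The 6 DFMO libraries were below the 6 vehicle libraries, and the loss was larger in iTreg (-1.65) than in Th17n (-0.63), with a difference of 1.02 between lineages (adjusted p = 0.019).

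Among gains, the smallest adjusted p belonged to Rpl3 (a large ribosomal subunit protein), 556 bp from the end of the gene model (chromosome 15, 80075748 to 80077225). It had 34.0, 32.7 and 28.9 CPM in Th17n vehicle against 119, 87.8 and 86.9 CPM with DFMO. In iTreg it had 43.5, 37.3 and 36.2 CPM against 88.5, 118 and 67.1 CPM. Every DFMO library was above every vehicle library, with an averaged change of 1.44 ± 0.12 (adjusted p = 7.6e-12). Another Rpl3 peak was the single loss among the cytosolic ribosomal protein genes (-0.71).

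Tgfbi encodes an extracellular matrix protein and is a classic TGF-beta target. A peak 7613 bp outside it (chromosome 13, 56601202 to 56601973) rose from 36.8, 38.4 and 40.6 CPM to 98.3, 72.9 and 78.5 CPM in Th17n cells. In iTreg cells it rose from 15.5, 11.1 and 17.2 CPM to 51.2, 48.9 and 61.0 CPM. The vehicle levels of the lineages were apart, and even so no vehicle library reached a DFMO library (averaged change 1.50 ± 0.13, adjusted p = 1.9e-11). Inside Phf21a, the gene of a reader of unmethylated histone H3 (chromosome 2, 92273356 to 92274103), accessibility rose from 12.3, 16.0 and 9.44 CPM to 41.0, 46.0 and 58.4 CPM in Th17n. The same peak rose from 13.5, 14.4 and 11.8 CPM to 39.1, 35.1 and 52.3 CPM in iTreg. Its changes in the lineages were 1.88 and 1.69, and the average was 1.78 ± 0.17 (adjusted p = 2e-10).

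Further leading gains included Stx5a, the gene of the Golgi SNARE syntaxin 5 (2.55 ± 0.24), Dpy19l4, which encodes a putative mannosyltransferase (2.12 ± 0.21), and the estrogen receptor gene Esr1 (2.56 ± 0.24). The Esr1 peak rose in both lineages and more in iTreg (3.52) than in Th17n (1.59). Of the 12 with the smallest adjusted p, 5 lay over small RNA genes: tRNA genes in the peaks assigned to Abt1 (2.23), Osbp (1.38), Ctc1 (1.16) and Trim7 (1.89), and a small nuclear RNA gene in the peak assigned to Slfn14 (1.07). By the same rule on level, the largest gains were at Esr1, Stx5a, the predicted gene Gm7244 (2.52), Abt1 and Dpy19l4. These 5 peaks met the 20 CPM minimum in the DFMO libraries and not in the vehicle libraries, whose means were 4.68 to 11.4 CPM.

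**Figure D2:**
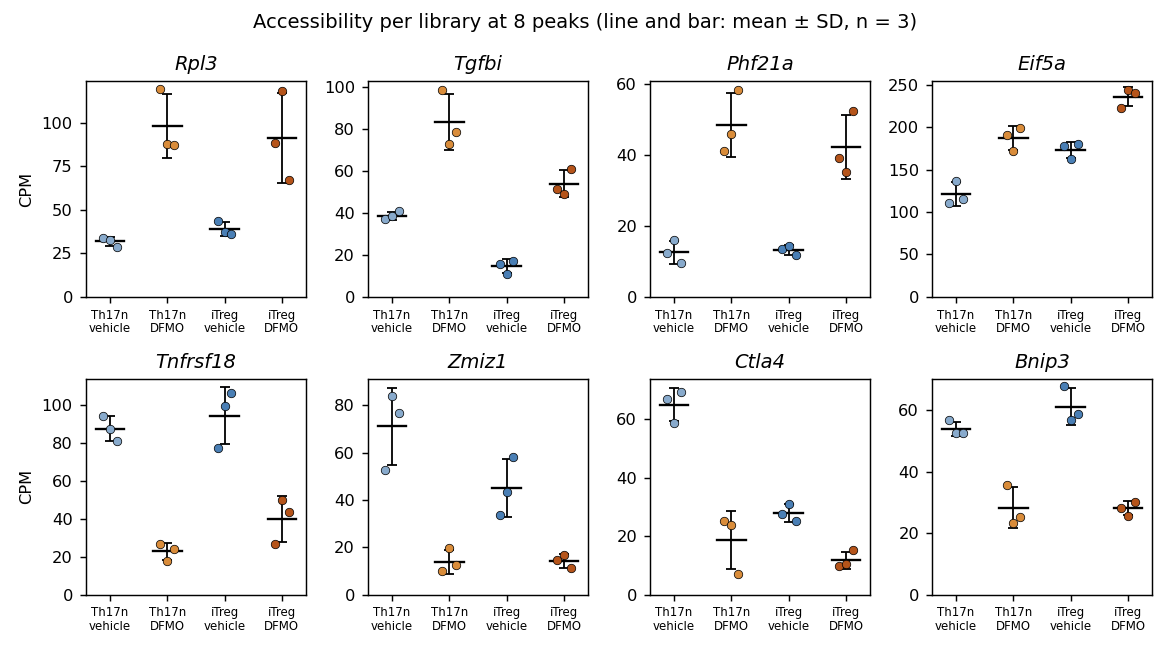
Accessibility (CPM, vertical axis) of each library at 8 peaks, named by the assigned gene, in the 4 groups on the horizontal axis; points are libraries, lines and bars the mean ± SD of 3. In each panel the DFMO points of a lineage lie wholly above (Rpl3, Tgfbi, Phf21a, Eif5a) or wholly below (Tnfrsf18, Zmiz1, Ctla4, Bnip3) its vehicle points.

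The averaged calls drew on both lineages to different degrees. In the lineages taken alone, 3841 peaks (8.78%; 4.50% higher and 4.28% lower) passed in Th17n and 3742 (8.56%; 3.84% higher and 4.72% lower) in iTreg, and 787 passed in both, which is 20.5% of the first list and 21.0% of the second. Of these 787, 747 moved in the same direction and 40 in opposite directions. Among averaged gains, 348 passed in both lineages, 1085 in Th17n alone, 944 in iTreg alone and 1132 (32.3%) in neither. Among averaged losses, the counts were 399, 840, 1155 and 1183 (33.1%). The estimated change had the same sign in both lineages at 97.1% of the gains and 97.5% of the losses, against 61.1% of all tested peaks, a share that the averaging itself raises. A difference between lineages passed at 574 peaks (1.31%), of which 127 were averaged gains and 99 averaged losses. That count was unstable: it was 171 after thinning and ran from 209 (without Th17n vehicle replicate 3) to 1353 (without iTreg DFMO replicate 2). After thinning, 1412 averaged calls passed in neither lineage alone, against 2315. Across the 43726 peaks, the Th17n and iTreg changes, which share no library but share animals, correlated at r = 0.285 and rho = 0.292.

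Of the peaks that passed only on average, the 10 with the smallest adjusted p are named. Snx5, a sorting nexin gene, is one: its gene end had 50.0, 56.5 and 55.8 CPM in Th17n vehicle and 81.0, 59.6 and 83.7 with DFMO, and 68.4, 65.3 and 74.6 in iTreg vehicle and 80.1, 99.8 and 98.2 with DFMO. Its DFMO libraries were higher than the vehicle libraries within each lineage, by 0.44 and 0.42 log2 units with adjusted p = 0.053 and 0.052, and by 0.43 ± 0.10 on average (adjusted p = 0.0026). A peak inside Zdhhc18, a palmitoyltransferase gene, fell by 0.69 ± 0.17 on average (adjusted p = 0.0029) through changes of -0.67 and -0.70. The other gains of this kind were at Akap1, Efnb2, Pacsin3 and Nr6a1 (0.47 to 2.02), and the other losses at Zfp703, Gse1, Ptk2b and Col18a1 (-1.26 to -0.71). After thinning, the losses at Zdhhc18, Zfp703 and Ptk2b still passed, and the other 7 calls of the 10 did not (for Snx5, adjusted p = 0.073). Estimates in peaks of this kind could also be uneven, as at a peak inside the B cell gene Ebf1 (-1.55 ± 0.68 in Th17n and -4.89 ± 1.71 in iTreg). That peak was near the floor in iTreg, at 0, 1.11 and 1.87 CPM with vehicle and 0 in every DFMO library. Its difference between lineages did not pass in edgeR's test (adjusted p = 0.46). Some single-lineage changes were absent from the average. Of the single-lineage calls, 1169 from Th17n and 896 from iTreg did not pass on average.

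The Il17a gene end (chromosome 1, 20730661 to 20731781) was such a case. It had 24.5, 24.4 and 18.0 CPM in Th17n vehicle and 11.1, 8.95 and 6.49 CPM with DFMO, and 0, 0.889 and 1.66 CPM in iTreg vehicle and 5.42, 2.97 and 1.54 CPM with DFMO. The treatments did not overlap in Th17n and overlapped in iTreg, and the averaged change of 0.11 ± 0.32 (adjusted p = 0.87) describes neither lineage. Its sign turned with the choice of model and with single libraries left out. Peaks with passing changes of opposite sign were selected by their difference between lineages and are given as values: the proteasome subunit gene Psma6 (1.42 in Th17n and -0.86 in iTreg), the small heat shock protein gene Hspb8 (-1.45 and 1.85), the repair gene Shld2 (2.81 and -1.25), the DNA damage kinase gene Atm (-1.35 and 1.80) and the Rab GTPase gene Rab38 (2.32 and -1.85). Their averaged changes lay between 0.20 and 0.78 and none passed.

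**Figure D3:**
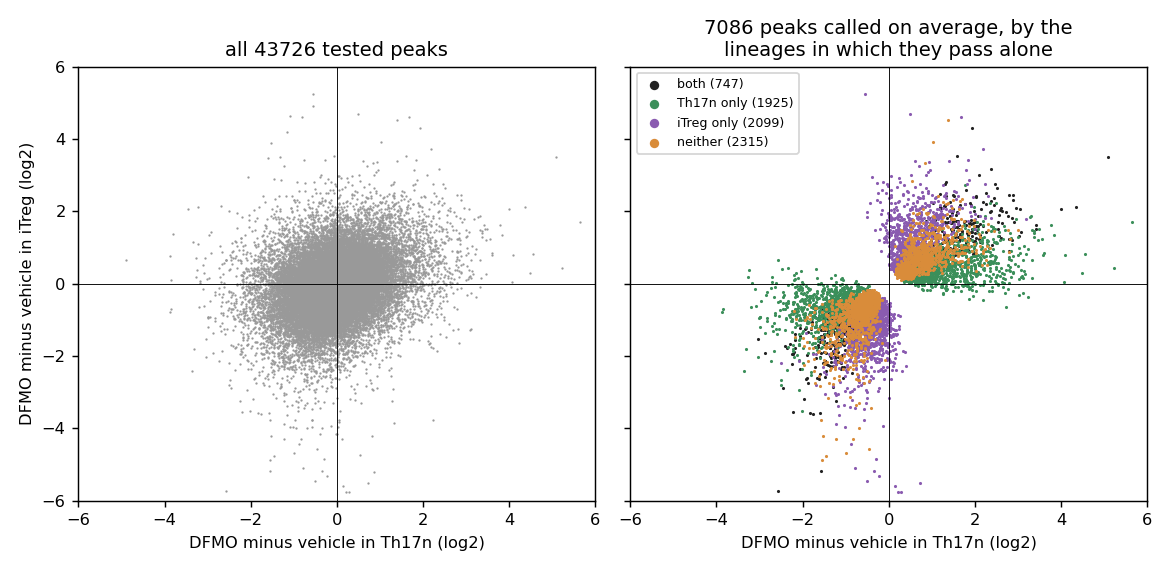
DFMO change in iTreg (log2, vertical axis) against that in Th17n (log2, horizontal axis) at all 43726 tested peaks (left) and at the 7086 called on average (right), coloured by the lineages in which they also pass alone; 3 peaks lie outside the axes. Of the called peaks that pass in both lineages, 348 lie in the upper right and 399 in the lower left.

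Gains lay at the ends of genes more often than losses. Within 1 kb of an end of the assigned gene model lay 33.2% of gains, 19.5% of losses and 26.8% of all tested peaks, while 49.8% of losses lay inside a gene model against 41.8% of all. At gene ends, 9.93% of tested peaks rose and 5.95% fell. This contrast depended on how level was treated. The 10% of peaks with the highest mean CPM, 75.0% of which are at gene ends, had a median change of 0.10, and the lowest 10% had a median of -0.099. After a normalization that removes any trend with level (cyclic loess), 23.5% of gains and 22.7% of losses were at gene ends. Of the individual calls, 2960 gains and 3180 losses passed in the same direction after that normalization.

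For promoter sequence, RefSeq windows of 300 bases (250 before to 50 after an annotated start, GRCm38.p6) were searched on both strands; 1228 windows lay under gains, 554 under losses and 10835 under any tested peak. The CCAAT box, a common promoter element bound by NF-Y and searched as ATTGG, was in 50.6% of windows under gains, 35.4% under losses, 37.7% under all tested peaks and 37.4% of all 32851 windows. Among the top 20% of peaks by level it was in 53.1% of 1057 windows under gains and in 38.9% of 5637 windows under the rest. Under the remaining peaks it was in 35.1% of 171 and 32.0% of 3972 windows. With the level trend removed, it was in 44.2% of windows under gains and 36.3% under losses. Windows under losses held the NRF1 motif in 2.89% and the ETS motif CCGGAAGT in 3.61% of cases, against 11.1% and 9.04% under all tested peaks and 12.7% and 8.47% under gains. The AP-1 motif TGANTCA was in 6.32% of windows under losses, 4.72% under gains and 4.54% under all. Mean GC content was 60.1% under gains, 64.7% under losses and 62.4% under all tested peaks. These shares are descriptions of the letters in the windows.

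The 250 bases before the start are printed for 3 named gains that hold CCAAT boxes in this stretch, with the boxes in capitals: Rpl10, a ribosomal protein gene (chrX:74270566-74270815, plus strand), the cell cycle factor gene E2f3 (chr13:29986064-29986313, minus strand) and Mcm5, a subunit gene of the replicative helicase (chr8:75109259-75109508, plus strand). They are followed by Bnip3, a mitophagy gene that is a known target of hypoxia-inducible factor and was the first of the hypoxia list by adjusted p (chr7:138909507-138909756, minus strand). There the capitals mark 2 overlapping matches of the hypoxia element ACGTGC, on opposite strands, which together also hold the E-box CACGTG.
Rpl10: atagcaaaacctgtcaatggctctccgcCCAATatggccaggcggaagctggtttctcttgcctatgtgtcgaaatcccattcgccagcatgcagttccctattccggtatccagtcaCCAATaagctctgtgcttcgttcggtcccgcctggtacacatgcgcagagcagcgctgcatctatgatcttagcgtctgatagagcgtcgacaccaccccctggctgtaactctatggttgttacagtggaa
E2f3: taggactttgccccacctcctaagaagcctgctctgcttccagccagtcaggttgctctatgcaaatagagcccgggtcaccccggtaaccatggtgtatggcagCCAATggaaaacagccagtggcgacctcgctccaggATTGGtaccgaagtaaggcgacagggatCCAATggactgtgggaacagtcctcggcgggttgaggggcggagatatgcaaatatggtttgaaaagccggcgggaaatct
Mcm5: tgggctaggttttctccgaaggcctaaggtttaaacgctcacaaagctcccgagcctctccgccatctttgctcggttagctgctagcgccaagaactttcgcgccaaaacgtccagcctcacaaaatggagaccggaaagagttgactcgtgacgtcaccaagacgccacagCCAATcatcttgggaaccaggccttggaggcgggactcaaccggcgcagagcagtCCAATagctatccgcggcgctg
Bnip3: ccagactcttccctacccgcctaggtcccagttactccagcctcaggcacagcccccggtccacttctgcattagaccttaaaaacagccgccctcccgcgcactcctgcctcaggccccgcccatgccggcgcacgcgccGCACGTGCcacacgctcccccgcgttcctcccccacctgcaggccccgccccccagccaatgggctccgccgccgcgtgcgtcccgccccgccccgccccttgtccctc

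The Rpl10 peak rose from 36.8, 46.5 and 48.6 CPM to 89.5, 63.9 and 56.4 CPM in Th17n and from 75.6, 58.0 and 61.1 CPM to 83.7, 110.2 and 101 CPM in iTreg (averaged change 0.64 ± 0.11, adjusted p = 6.5e-05). The E2f3 peak rose from 95.3, 91.1 and 89.0 CPM to 124, 119 and 119 CPM in Th17n and from 123, 131 and 111 CPM to 140.3, 151 and 182 CPM in iTreg (0.39 ± 0.08, adjusted p = 0.00095). For both genes the DFMO libraries lay above the vehicle libraries of their lineage. At Mcm5 the values were 67.0, 51.9 and 52.7 CPM against 89.1, 64.8 and 57.1 CPM in Th17n, which overlap, and 81.9, 66.9 and 68.6 CPM against 123, 98.4 and 107 CPM in iTreg, which do not (0.49 ± 0.11, adjusted p = 0.0011).

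Peaks over small RNA genes that RNA polymerase III or the snRNA promoters serve were the group that rose most often. Transfer RNAs carry amino acids to the ribosome and their genes are transcribed by RNA polymerase III. Of 145 tested peaks over 199 tRNA genes, 101 rose (69.7%) and 0 fell, against 8.02% and 8.18% of all tested peaks. An estimate above 0 was found at 139 of the 145, and the median change was 0.54. The gains among them ranged from 0.23 to 2.53. The medians of the 145 were 0.73 in Th17n and 0.38 in iTreg. In each lineage's own test 89 passed as gains in Th17n and 30 in iTreg, and a peak passing in both is in both counts. The difference between lineages passed at 6. After thinning, 77 rose and 0 fell, and with single libraries left out 81 to 98 rose. Transfer RNA, snRNA and histone genes come in near-identical copies, and how reads shared by copies were placed is not given in the sources used here, so values of single peaks over them are uncertain.

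As a share of all counts, peaks over tRNA genes held 0.464%, 0.513% and 0.494% in Th17n vehicle and 0.782%, 0.757% and 0.784% in Th17n with DFMO. In iTreg they held 0.694%, 0.693% and 0.665% with vehicle and 0.777%, 0.897% and 0.823% with DFMO. The 6 DFMO libraries were all above the 6 vehicle libraries. By amino acid, gains were found for all 20: 13 of 15 peaks with an arginine tRNA gene, 13 of 16 for serine, 12 of 14 for valine, 11 of 12 for alanine, 9 of 11 for isoleucine, 4 of 4 for tyrosine and 1 of 4 for histidine, with a peak counted under each amino acid it holds. The Abt1 peak, over a tyrosine tRNA gene, had 3.77, 5.18 and 5.15 CPM in Th17n vehicle and 30.3, 22.2 and 36.3 with DFMO, and 10.4, 11.6 and 5.61 in iTreg vehicle and 27.1, 47.9 and 26.5 with DFMO. Its treatments were apart in each lineage.

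Small nuclear RNAs are the RNA parts of the spliceosome. Of 35 peaks over snRNA genes 28 rose, and 1 fell: a peak that was assigned to Tnfrsf9 (-0.37). The median change was 0.87 in Th17n and 0.30 in iTreg. Their share of counts was 0.192% to 0.203% in Th17n vehicle and 0.322% to 0.367% with DFMO, without overlap. In iTreg it was 0.249% to 0.298% with vehicle and 0.291% to 0.387% with DFMO, and these overlapped. Of 33 peaks over small nucleolar RNA genes, which guide RNA modification, 6 rose (18.2%) and 0 fell. Of 94 over microRNA genes 12 rose (12.8%) and 10 fell. For all tested peaks the shares are 8.02% higher and 8.18% lower, so the microRNA counts were not far from them.

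**Figure D4:**
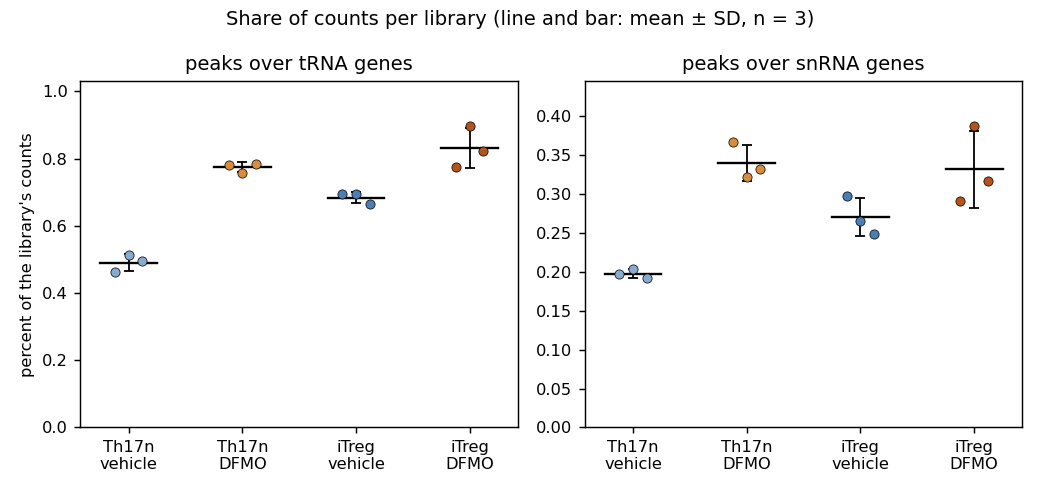
Share of each library's counts (percent, vertical axis) in peaks over tRNA genes (left) and over snRNA genes (right), in the 4 groups on the horizontal axis; points are libraries, lines and bars the mean ± SD of 3. For tRNA genes all DFMO points lie above all vehicle points, and for snRNA genes the iTreg groups overlap.

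The list of replication-dependent histone genes, which are transcribed in S phase, was drawn by a name pattern. Of its 59 peaks 30 rose (50.8%) and 1 fell (1.69%), against 8.02% and 8.18% of all tested peaks, with a median of 0.34. The loss was at H1f8, an oocyte linker histone gene that the pattern took in and that is not of this kind. The median was 0.67 in Th17n and 0.02 in iTreg, and the difference between lineages passed at 11 of the 59 peaks. H1f3 shows the pattern: 105, 136 and 124 CPM in Th17n vehicle and 236, 228 and 255 CPM with DFMO, but 219, 183 and 164 CPM in iTreg vehicle and 179, 254 and 206 CPM with DFMO. The groups were apart in Th17n and overlapped in iTreg (average 0.57 ± 0.08, adjusted p = 3e-06; difference between lineages 0.76, adjusted p = 0.011). Many of these genes share a stretch of chromosome 13 with tRNA genes. Between 21160786 and 23530506 lay 86 tested peaks, of which 47 rose and 1 fell: 40 of 47 peaks over tRNA genes rose, 14 of 25 assigned to histone genes (some peaks are both), and 1 of 24 others.

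Genes of protein synthesis gained more than they lost. Among 123 peaks of cytosolic ribosomal protein genes 28 rose (22.8%) and 1 fell (0.813%), against 8.02% and 8.18% of all tested peaks. Their median was 0.22, against a median near 0 for all tested peaks. At their gene ends 24 of 71 rose and 0 fell, against 9.93% and 5.95% of all tested gene-end peaks. After Rpl3, the clearest were Rpl10 and Rps19, a small-subunit protein gene that rose from 75.5, 73.9 and 71.3 CPM to 123, 100.1 and 96.7 CPM in Th17n and from 103, 92.2 and 116 CPM to 145, 158 and 159.5 CPM in iTreg. Rps19 did not overlap between treatments in either lineage (0.56 ± 0.09, adjusted p = 1.2e-05). The CCAAT box was in 4 of 21 windows under the gains of this family, against 19 of 68 windows under all its tested peaks. With level trends removed 24 of the 123 rose and 0 fell, and after thinning 12 rose and 0 fell.

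Genes of ribosome biogenesis and of RNA polymerases I and III had 13 gains and 4 losses of 60 peaks (21.7% and 6.67%). Their gains at gene ends included Npm1, the gene of the nucleolar protein nucleophosmin (0.62 ± 0.11, adjusted p = 4.3e-05), Gtf3c2, a subunit gene of the tRNA promoter factor TFIIIC (0.48), and Polr1a, the largest-subunit gene of RNA polymerase I (0.52). The 4 losses were 3 peaks of Polr3b, which also had a gain (0.42), and 1 of Brf1, both genes of the polymerase III machinery. Translation factor genes had 14 gains and 4 losses of 128 peaks (median 0.16). These are 10.9% and 3.13%, so the share of gains was near the 8.02% of all tested peaks, of which 8.18% fell. The losses were at Eif3h, Eif2d, Eif4e and Eif2ak3. Eif3h also had a gain (0.96).

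Mitochondrial ribosomal protein genes had 18 gains and 12 losses of 134 peaks (13.4% and 8.96%), against 8.02% and 8.18% of all tested peaks. At gene ends 13 of 57 rose and 0 fell, against 9.93% and 5.95% of all tested gene-end peaks. Over the alternatives the list had 9 to 20 gains. Of the 12 losses 5 belonged to Mrpl46. Their leading gain, Mrpl58, lies over 3 arginine tRNA genes and rose in Th17n (1.05) while its iTreg change did not pass (0.28, adjusted p = 0.099). Aminoacyl-tRNA synthetase genes, which charge tRNAs, had 4 gains (Tars, Farsb, Lars and Aars, 0.33 to 0.52) and 1 loss (Iars, -0.94) of 36 peaks, or 11.1% and 2.78% against 8.02% and 8.18% of all tested peaks. The Tars and Lars calls were lost after thinning (adjusted p = 0.068 and 0.12), the Lars call also without iTreg DFMO replicate 3 (adjusted p = 0.063), and over the alternatives the list had 1 to 5 gains. Proteasome genes had 13 gains and 6 losses of 88 peaks (14.8% and 6.82%), but after thinning 2 gains and 3 losses, and 6 to 14 gains with single libraries left out.

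At genes of the polyamine pathway, 9.59% of tested peaks rose and 5.48% fell, near the 8.02% and 8.18% of all tested peaks. The gene end of Odc1, which encodes ornithine decarboxylase (chromosome 12, 17544271 to 17545482), had 83.0, 80.3 and 99.0 CPM in Th17n vehicle and 88.5, 85.2 and 95.4 CPM with DFMO. In iTreg it had 112, 105 and 109.5 CPM with vehicle and 137, 107 and 128 CPM with DFMO. The groups overlapped in both lineages, and the averaged change was 0.11 ± 0.09 (adjusted p = 0.46). DFMO acts on the enzyme, so the Odc1 locus is no check of the labels. No change passed at the gene ends of Amd1, the adenosylmethionine decarboxylase gene (0.20 ± 0.09, adjusted p = 0.14), and Azin1, the antizyme inhibitor gene (0.11 ± 0.08, adjusted p = 0.39), or at the Smox peak nearest a gene end (-0.87 ± 0.55, adjusted p = 0.30).

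Of 19 gene-end peaks of polyamine genes 5 rose and 0 fell, against 9.93% and 5.95% of all tested gene-end peaks. Of all 73 peaks of these genes 7 rose and 4 fell, and their median of -0.03 changed sign between settings. The gains were 2 peaks of Eif5a, the gene of the hypusinated factor, and 1 each of the transporter gene Slc12a8, the adenosylmethionine synthetase gene Mat2a, the amino acid transporter gene Slc3a2, the spermidine synthase gene Srm and the antizyme gene Oaz1. The losses were at Amd1 (-1.25), Azin1 (-0.41), Smox (-0.78) and Odc1 (-0.47), at peaks other than those above. At the Eif5a gene end (chromosome 11, 69920614 to 69922046) accessibility rose from 110.4, 137 and 116 CPM to 190.3, 172 and 199 CPM in Th17n and from 178, 162 and 180.2 CPM to 223, 244 and 241 CPM in iTreg. Its treatments were apart in both lineages (0.53 ± 0.08, adjusted p = 2.5e-06). The Srm gene end changed by 0.30 ± 0.09 (adjusted p = 0.018), by 0.53 in Th17n and 0.07 in iTreg, and this call was lost under 6 of 21 alternatives, among them thinning and the removal of level trends.

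Peaks of the T cell programme lists fell more often than they rose, though most were not called. The Th17 list had 5 gains and 40 losses of 209 peaks (median -0.23), and the Treg list 9 and 41 of 182 (median -0.19). Naive and memory genes had 12 and 52 of 327, activation and AP-1 genes 11 and 47 of 250, TNF receptor family genes 5 and 26 of 120, and T cell identity genes 9 and 27 of 188. Th1 genes had 4 and 13 of 75 and Th2 genes 3 and 9 of 43. For all tested peaks the shares are 8.02% and 8.18%. In each of these lists the median was below 0 in every alternative setting, and losses outnumbered gains after thinning as well, at 2 and 15 for the Th17 list and 4 and 24 for the Treg list. Fewer peaks of these lists lay at gene ends. Of all tested gene-end peaks 9.93% rose and 5.95% fell. The Th17 list had 0 gains and 4 losses of 31 there, and the Treg list 2 and 6 of 25. Naive and memory genes had 0 and 4 of 25, activation genes 3 and 4 of 40 and the TNF receptor family 3 and 3 of 20. T cell identity genes had 1 gain and 0 losses of 22 there, with a median of 0.05. Genes are in several lists, as Tnfrsf9 is in both the Treg and TNF receptor lists.

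**Figure D5:**
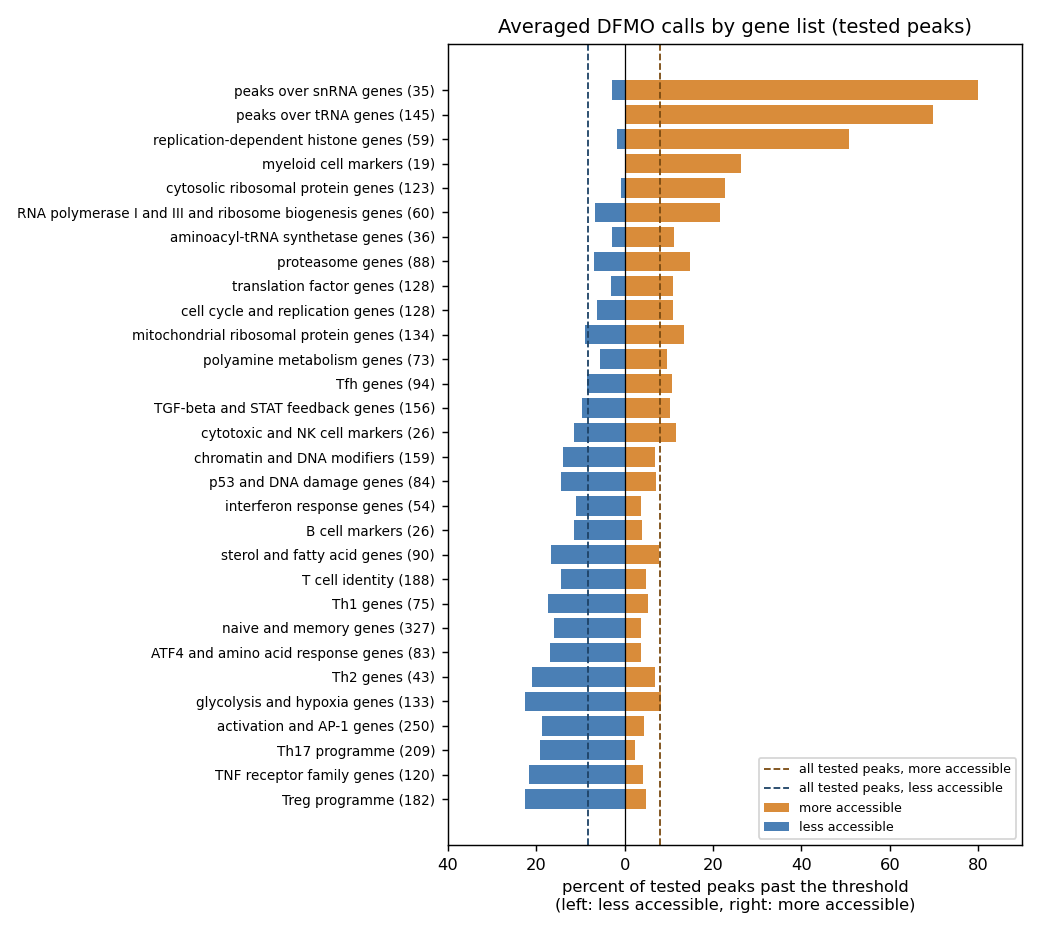
Percent of the tested peaks of each list that were called more accessible (orange, right) or less accessible (blue, left) with DFMO on average over lineages; the number of tested peaks is in brackets. Dashed lines give the shares over all tested peaks, 8.02% and 8.18%.

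In the Th17 list, the named losses were at Rora, the gene of a nuclear receptor of Th17 cells (-1.25 ± 0.18), Hif1a, the gene of hypoxia-inducible factor 1 alpha (-1.69 ± 0.25), and Il6ra, the IL-6 receptor gene (-1.81 ± 0.30). The Rora peak had 33.0, 46.3 and 32.6 CPM in Th17n vehicle and 23.8, 20.9 and 21.4 with DFMO, and 26.4, 38.9 and 34.3 in iTreg vehicle and 10.2, 13.3 and 8.01 with DFMO. Vehicle was above DFMO in every comparison within a lineage. The 5 gains were at Stat3, Runx1, Ahr, Rora and Il21 (0.49 to 1.10). The Il17f gene end did not pass (-0.22, adjusted p = 0.81).

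Among Treg genes, Ctla4 encodes an inhibitory receptor. Its peak at chromosome 1, 60916453 to 60917552, had 67.0, 58.5 and 69.2 CPM in Th17n vehicle and 25.1, 23.9 and 7.14 with DFMO, and 27.5, 31.1 and 25.1 in iTreg vehicle and 9.64, 10.4 and 15.1 with DFMO. The treatments did not overlap within a lineage (-1.45 ± 0.18, adjusted p = 1.2e-07). Another Ctla4 gene-end peak fell by 1.06 ± 0.18, and a Ctla4 peak outside the gene rose by 0.49 ± 0.16. Tnfrsf9, the gene of the co-stimulatory receptor 4-1BB, fell by 1.39 ± 0.17. The Foxp3 peak did not pass on average (-0.62 ± 0.30, adjusted p = 0.15), and neither did the gene ends of Il2ra (-0.0043, adjusted p = 0.99) and Ikzf2 (-0.11, adjusted p = 0.70). At Foxp3 the mean was 15.7 CPM with vehicle and 5.38 with DFMO in Th17n, and 4.39 and 5.33 in iTreg. The means thus moved in opposite directions, and the average describes neither lineage. The 9 gains of the list included 2 other Il2ra peaks (1.00 and 0.64), 2 of Izumo1r (both 0.63), the gene of folate receptor 4, and 1 each of Nrp1 (0.88), Entpd1 (0.74), Capg (0.54) and Socs2 (0.46).

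Naive and memory genes lost peaks at Ccr7 and Bach2, the gene of a repressor that keeps T cells quiescent (-0.93 ± 0.13, adjusted p = 2e-06), while a distal Lef1 peak rose (1.47 ± 0.24). Among activation genes, peaks of the AP-1 gene Fosl2 (-1.22 ± 0.16) and the NF-kB gene Nfkb1 (-1.31 ± 0.19) fell, and a peak 89236 bp from Tnfaip3, the gene of an NF-kB inhibitor, rose (1.29 ± 0.20). Th1 losses were led by the chemokine gene Ccl5 (-2.67 ± 0.55), Il12rb2 and Stat4. The Ccl5 peak was near the floor, at 3.11 to 7.55 CPM with vehicle and 0 to 1.48 CPM with DFMO. The named Il12rb2 call was lost in DESeq2 (adjusted p = 0.096). The gene end of Tbx21 (-0.34) and an Ifng peak 12781 bp outside the gene (-0.35) did not pass, while 2 other peaks outside Ifng rose (1.24 and 1.18). Th2 losses were led by Ccr8 (-0.64), Il4ra (-1.17) and Stat6 (-0.37). Tfh genes had 10 gains and 8 losses of 94 peaks (10.6% and 8.51%, near the shares of all tested peaks), with gains at Tox2 (1.40) and the PD-1 gene Pdcd1 (1.29). At Cxcr5 a gene-end peak fell (-0.65) and a peak outside the gene rose (0.70). In the TGF-beta and STAT feedback list 16 of 156 peaks rose and 15 fell, also near those shares (10.3% and 9.62%). Beside Tgfbi, the gene ends of the cytokine signalling inhibitors Socs1 and Socs2 rose (both 0.46), and 2 peaks of Socs3 fell (-0.81 and -0.65).

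Genes of glycolysis and the hypoxia response had 11 gains and 30 losses of 133 peaks (median -0.25). These are 8.27% and 22.6%, against 8.02% and 8.18% of all tested peaks, so only the losses departed from those shares. At gene ends the imbalance was wider, with 1 gain (Pgam1, 0.39) and 14 losses of 35 (median -0.36). Of all tested gene-end peaks 9.93% rose and 5.95% fell. The 14 were 2 peaks of the oxygen sensor gene Egln3 and 1 each of Bnip3, Hif1a, Gapdh, Ndrg1, Slc16a3, Pkm, Ero1a, Slc2a1, Mxi1, Hk2, Ankrd37 and Ldha, with changes from -2.23 to -0.30. They include enzymes of glycolysis (Hk2, Gapdh, Pkm, Ldha) and the transporters of glucose (Slc2a1) and lactate (Slc16a3). Bnip3 stood at 56.6, 52.5 and 52.7 CPM in Th17n vehicle and 35.8, 23.4 and 25.3 CPM with DFMO. In iTreg it stood at 67.9, 56.9 and 58.6 CPM with vehicle and 28.3, 25.7 and 30.2 CPM with DFMO. All DFMO libraries were below all vehicle libraries (-1.0004 ± 0.13, adjusted p = 3.9e-07). The losses at Slc16a3 (-1.55 in iTreg and -0.091 in Th17n) and Slc2a1 (-0.65 and -0.067) were larger in iTreg by the estimates. The element ACGTGC was in 5 of 9 promoter windows under losses of this list and in 11 of 27 windows under its other peaks. Over all genes, it was in 7.58% of windows under losses and 8.68% under all tested peaks.

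Some genes had several called peaks. Of the 14143 genes with a tested peak, 229 had at least 3 losses and 84 at least 3 gains. Among these, 143 and 55 had no peak called the other way. Of all tested peaks 8.02% rose and 8.18% fell. The genes named here were picked for having the most calls, which favours genes with many tested peaks. Bach2 had 14 losses and 2 gains of 50 tested peaks, Exoc2, an exocyst subunit gene, 11 losses and 2 gains of 29, and Tomm20, the gene of a mitochondrial import receptor, 10 losses and 0 gains of 21. Sla, the gene of an adaptor that damps T cell receptor signalling, had 9 losses of 12, Nfkb1 9 of 25 with 1 gain, and the ubiquitin ligase gene Cblb 8 of 16. Among genes with many gains, Maml2, a Notch coactivator gene, had 8 gains and 4 losses of 32, and the others had no loss: Zfp184 and Trim27 in the tRNA-rich stretch of chromosome 13, Gm52481 on the Y chromosome, Tex14 and Gpc5. Gm52481 may share reads with near-identical copies, and its 6 gains are uncertain for that reason.

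Lists of other cell types moved by a few peaks. For all tested peaks the shares are 8.02% higher and 8.18% lower. The myeloid list had 5 gains and 0 losses of 19 peaks (26.3% and 0%): 2 assigned to Fcgr1, both over tRNA genes, and 1 each at Spi1, S100a9 and Cebpa. The Spi1 call was lost under 2 of 21 alternatives and the S100a9 call under 4 of 20. Cytotoxic and NK markers had 3 gains (Gzmb, Fcgr3 and Cd8b1) and 3 losses (Gzmb, Gzmk and Eomes) of 26 (11.5% each), and 0 to 4 gains over the alternatives. The Fcgr3 peak lies over a tRNA gene; its call was lost under 7 of 21 alternatives and the Gzmk call under 6. The summed level of 4 cytotoxic markers was 35.8 to 37.7 CPM in Th17n vehicle and 32.2 to 49.0 with DFMO, and 18.6 to 24.9 in iTreg vehicle and 33.3 to 36.7 with DFMO, with no peak at Cd8a or Nkg7. B cell markers had 1 gain (Blnk) and 3 losses, all at Ebf1, of 26 (3.85% and 11.5%), and the leading Ebf1 call was lost under 2 of 20 alternatives. The part of such cells in the averaged changes was not tested.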

How the data were processed

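ATAC-seq was run on 12 libraries (3 animals in each of 4 groups). Per the submitters' processing notes the authors used Trimmomatic, FastQC, Bowtie2 and MACS2 on mm10, with no versions or roles stated. The deposited table gives whole-number counts per peak, which the authors did not normalize; starts are printed as listed. Every sample column was used.

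From these counts, edgeR 4.0.16 (R 4.3.3) fitted 4 group means to all 12 libraries by quasi-likelihood with TMM factors, after a minimum count of 10 left 43726 peaks. The 2 lineages' DFMO effects were averaged with equal weight, and p-values were adjusted by Benjamini-Hochberg (threshold 0.05). CPM is counts per 1000000 of the TMM-scaled total. Peaks took the nearest RefSeq gene within 100 kb, and a gene end is either end of its model, within 1 kb. Fits were tested on simulated data. Animal numbers come from the labels: 18 same-animal pairs across groups had deviations correlated at -0.055 to 0.075.

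Members and lists were chosen with earlier results of these data known, and the histone list's name pattern was widened after seeing the table. Named peaks were the 12 of each direction with the smallest adjusted p that moved 1 way in 6 of 6 pairs, up to 3 per list, fixed genes, genes with the most calls, 5 per direction passing on average alone, the opposite-sign peaks and the largest changes above 20 CPM. Other named list members were chosen after their values were seen, and a few items are not reported here. Alternatives were an additive model, an animal block, DESeq2 1.42.0, RLE factors, library totals, cyclic loess offsets (limma 3.58.1), other filters, thinning and each library left out.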

Additional observations from a re-analysis of the deposited data

Results flagged for a closer look

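Several named peaks had a DFMO effect that differed between lineages in edgeR's test of that difference (Th17n effect minus iTreg effect, log2). 4 of them sat over small RNA genes and were larger in Th17n: Slfn14 (0.79, adjusted p = 0.047), Osbp (1.14, adjusted p = 0.039), Ctc1 (1.05, adjusted p = 0.022) and Mrpl58 (0.76, adjusted p = 0.0062). The histone gene H1f3 also rose more in Th17n (0.76, adjusted p = 0.011).

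The Esr1 gain was larger in iTreg (difference -1.93, adjusted p = 0.033). The losses at Rassf7 (1.02, adjusted p = 0.019) and at Fads2, a fatty acid desaturase gene (1.67, adjusted p = 0.00012), were larger in iTreg; Fads2 changed by -1.82 there and by -0.15 in Th17n. The Il17a gene end differed by -2.78 (adjusted p = 0.033), with the lineages on opposite sides of 0. The peaks at Psma6 (2.28), Hspb8 (-3.30), Shld2 (4.06), Atm (-3.15) and Rab38 (4.17) were chosen on this same contrast, so their differences are descriptions.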

How the results depend on the processing

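Of 115 named calls, 96 passed in the same direction under all 9 other settings and all 12 left-out libraries in which they were tested, 19 were lost under at least 1, and 0 reversed. Thinning gave 1615 gains, 1715 losses, 171 lineage differences and 1412 averaged calls that passed in neither lineage. With 1 library left out, gains ran from 2209 to 3755, losses from 2373 to 4081, lineage differences from 209 to 1353 (the last without iTreg DFMO replicate 2), calls passing in neither lineage from 1895 to 2384, and gains over tRNA genes from 81 to 98. With the animal as a replicate block, 3356 gains and 3357 losses passed, and 7 of 12 libraries correlated best with one of their own animal. DESeq2 gave 3049 and 3070.

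The share of gains at gene ends was 31.2% with library totals, 23.5% with loess offsets, 28.9% with no filter, 42.6% with a minimum count of 30, 30.8% after thinning, 30.8% and 36.5% with windows of 500 bp and 2 kb, and 27.2% to 34.5% with 1 library left out. For losses it was 22.7% with loess offsets, 22.3% with a minimum count of 30, 17.4% and 23.6% with those windows, and 18.1% to 20.9% with 1 library left out. Relative counting error is largest for peaks of low level. Estimates that did not pass changed sign: Il17a (additive model -0.51; 1 library left out -0.15 to 0.47, with -0.012 and -0.042 between), Atm (additive -0.18, thinned -0.12), Azin1 (loess -0.039), Il2ra (minimum count 30 0.0071, thinned 0.0052; left out -0.082 to 0.065, with 0.046, 0.063 and 0.044 between), Hspb8 (thinned -0.084) and Il17f (left out -1.02 to 0.61, with 0.031 between). The cause was not tested.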

Other observations

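Counts of further lists are read against the shares of all tested peaks, of which 8.02% rose and 8.18% fell. Genes of sterol and fatty acid metabolism had 7 gains and 15 losses of 90 tested peaks (7.78% and 16.7%). The losses included Fads2 (-0.99 ± 0.12) and 3 peaks of the elongase gene Elovl6 (-1.09 to -0.66), and the gains included the gene ends of Srebf2, the gene of a sterol-sensing transcription factor (0.29), and Idi1 (0.32). Genes of the ATF4 and amino acid response had 3 gains, at Slc3a2, Psph and Slc7a5 (0.31 to 0.37), and 14 losses of 83 peaks (3.61% and 16.9%). Ddit4, the gene of an inhibitor of mTORC1 signalling, had 5 of these losses (-1.34 to -0.65), and Trib3 (-2.07 ± 0.39) and Chac1 (-0.67 ± 0.13) followed. The Trib3 peak was low, at 2.83 to 13.3 CPM with vehicle and 0 to 2.98 CPM with DFMO.

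Chromatin and DNA modifier genes had 11 gains and 22 losses of 159 peaks (6.92% and 13.8%), with losses inside the histone deacetylase gene Hdac7 (-1.01 ± 0.15) and the H3K27 methyltransferase gene Ezh2 (-1.31 ± 0.24) and a gain inside the maintenance methyltransferase gene Dnmt1 (0.60 ± 0.11). Genes of p53 and DNA damage had 6 gains and 12 losses of 84 (7.14% and 14.3%). They were led by a loss 87289 bp from Gadd45g (-0.84 ± 0.12) and a gain 2758 bp from Mdm4 (0.85 ± 0.13). The Mdm4 peak holds 2 lysine tRNA genes. Cell cycle and replication genes had 14 gains and 8 losses of 128 peaks (10.9% and 6.25%). At their gene ends 7 of 35 rose and 0 fell, against 9.93% and 5.95% of all tested gene-end peaks. Interferon response genes had 2 gains (Irf1 and Psmb9) and 6 losses of 54 (3.70% and 11.1%).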
